A study of Mus musculus with 55 samples.

Results

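The Hox genes are 39 mouse homeobox genes in 4 clusters, lettered Hoxa to Hoxd, and here they were followed as a group across tumours grown in 2 kinds of host. Members were every row of the 2 deposited tables whose symbol was Hox, a cluster letter and a number. All 39 were found in each table among 47606 genes, with the same identifier in both. The tumours came from BBN963, a mouse bladder cancer line, which is a single line injected under the skin and so carries the limits of 1 source of cancer cells in an ectopic site. In C57BL/6 mice, called B6 here, 3000000 cells were injected, animals were assigned at random once tumours reached 200 mm3, and treated animals ate chow holding 12 mg/kg of entinostat, a drug that blocks the class I enzymes removing acetyl groups from histones. The hosts called NSG lack T, B and NK cells. RNA was sequenced from B6 tumours labelled baseline (n = 4), vehicle (n = 6) and entinostat (n = 5), and from 5 NSG tumours of each label. A sixth B6 entinostat tumour was not analysed here. B6 entinostat tumours were collected at 100 mm3 and the collection volume of the other groups is not stated, so tumour volume and treatment cannot be told apart. For NSG mice the labels give no dose and no volume. The tumours were taken as the replicates, and p-values measure the spread between them.

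Hox proteins are transcription factors that tell a cell where it lies along the body axis. Within a cluster the genes are ordered so that low numbers act toward the head and high numbers toward the tail and the ends of the limbs, and genes of the same number in different clusters, called paralogues, are related copies. Adult cells, fibroblasts above all, keep a Hox pattern that reflects the site they came from, and Polycomb and trithorax proteins hold that pattern in a silent or active state.

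In the RefSeq annotation of GRCm38, the build also called mm10, the 11 Hoxa genes lie on chromosome 6 between 52155367 and 52260880. The 10 Hoxb genes lie on chromosome 11 between 96194316 and 96368254, the 9 Hoxc genes on chromosome 15 between 102921131 and 103036856, and the 9 Hoxd genes on chromosome 2 between 74668225 and 74765142. Of the 39 gene spans, 20 overlap another annotated gene. Hoxa3 overlaps Hoxa4, Hoxa5 and Hoxa6, Hoxb3 overlaps Hoxb4 and Hoxb3os, Hoxb5 and Hoxb6 overlap Hoxb5os, and Hoxd10 overlaps Hoxd11. How reads in such overlaps were assigned is not given in the sources used here, so values of these genes are uncertain to that extent. The spans of Hoxb7, Hoxb8, Hoxb9, Hoxc6, Hoxc8, Hoxc10 and Hoxd9 overlap no other annotated gene.

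A RefSeq promoter table of build GRCm38.p6 held 24 windows for 22 of the 39 genes. The 250 bases upstream of a transcript start in that table are shown for 1 gene each of Hoxb, Hoxc and Hoxd. The genes are Hoxb8, the only matched Hoxc gene Hoxc4, and Hoxd9. Their windows lie at chr11:96281655-96281904, chr15:103034145-103034394 and chr2:74697513-74697762, all on the plus strand. The Hoxb8 and Hoxc4 windows lie inside the annotated gene spans, which begin further upstream at 96279401 and 103018097, while the Hoxd9 window ends just before its span. Capitals mark the homeodomain core motif TAAT on either strand.
Hoxb8: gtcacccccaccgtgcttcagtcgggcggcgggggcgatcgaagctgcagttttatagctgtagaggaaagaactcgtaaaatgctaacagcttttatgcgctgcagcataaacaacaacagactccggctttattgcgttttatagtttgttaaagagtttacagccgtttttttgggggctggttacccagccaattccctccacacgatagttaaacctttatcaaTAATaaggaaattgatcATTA
Hoxc4: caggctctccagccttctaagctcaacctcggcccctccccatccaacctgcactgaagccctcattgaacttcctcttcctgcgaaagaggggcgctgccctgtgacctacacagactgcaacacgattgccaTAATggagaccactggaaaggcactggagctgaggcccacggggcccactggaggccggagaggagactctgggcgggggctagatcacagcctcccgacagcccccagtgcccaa
Hoxd9: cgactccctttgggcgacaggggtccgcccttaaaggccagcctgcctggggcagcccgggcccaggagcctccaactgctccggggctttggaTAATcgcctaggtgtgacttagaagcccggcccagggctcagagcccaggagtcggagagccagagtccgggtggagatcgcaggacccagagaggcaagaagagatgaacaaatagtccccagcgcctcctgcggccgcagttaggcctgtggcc
The Hoxb8 window held 2 matches to TAAT, and the Hoxc4 and Hoxd9 windows 1 each. Searched on both strands, TAAT was present in 18 of the 24 Hox windows and in 54.9% of all 32851 windows of the table. GGGCGG was present in 10 Hox windows and 32.7% of all, and TATAAA in 4 and 12.4%. The Hox cofactor motif TGATNNAT was present in 4 and 7.68%. The median number of CpG dinucleotides was 12.5 in the Hox windows and 6 in all windows, and was 12, 8 and 13 in the Hoxb8, Hoxc4 and Hoxd9 windows. A match is a description of these letters and no measure of binding.

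Values are normalized counts, deposited in 1 table per host that was scaled on its own, so levels are set side by side only within a host. They are not divided by gene length, so levels are not compared between genes, and sums over a cluster weight long transcripts more. Libraries held about 11000000 to 51700000 reads, taking the most common low value as 1 read. That value was 0.612 to 3.162 normalized counts, so a gene listed at 1 to 3 rests on a few reads. Of the 39 Hox genes, 27 passed the filter on low values in B6 tumours (10 or more in at least 4 tumours) and 26 in NSG tumours (in at least 5). The 12 genes left out in B6 were Hoxa6, Hoxa11, Hoxa13, Hoxb1, Hoxb13, Hoxc11, Hoxc12, Hoxc13, Hoxd1, Hoxd3, Hoxd12 and Hoxd13, with no value above 12.49. In NSG, Hoxc10 and Hoxd11 were left out as well and Hoxa6 passed, with no value above 32.5 among the 13 left out. Hoxa13 and Hoxd13, which pattern the hind end and the urogenital tract, the origin of the bladder, had no value above 7.466 in B6 tumours.

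**Figure D1:**
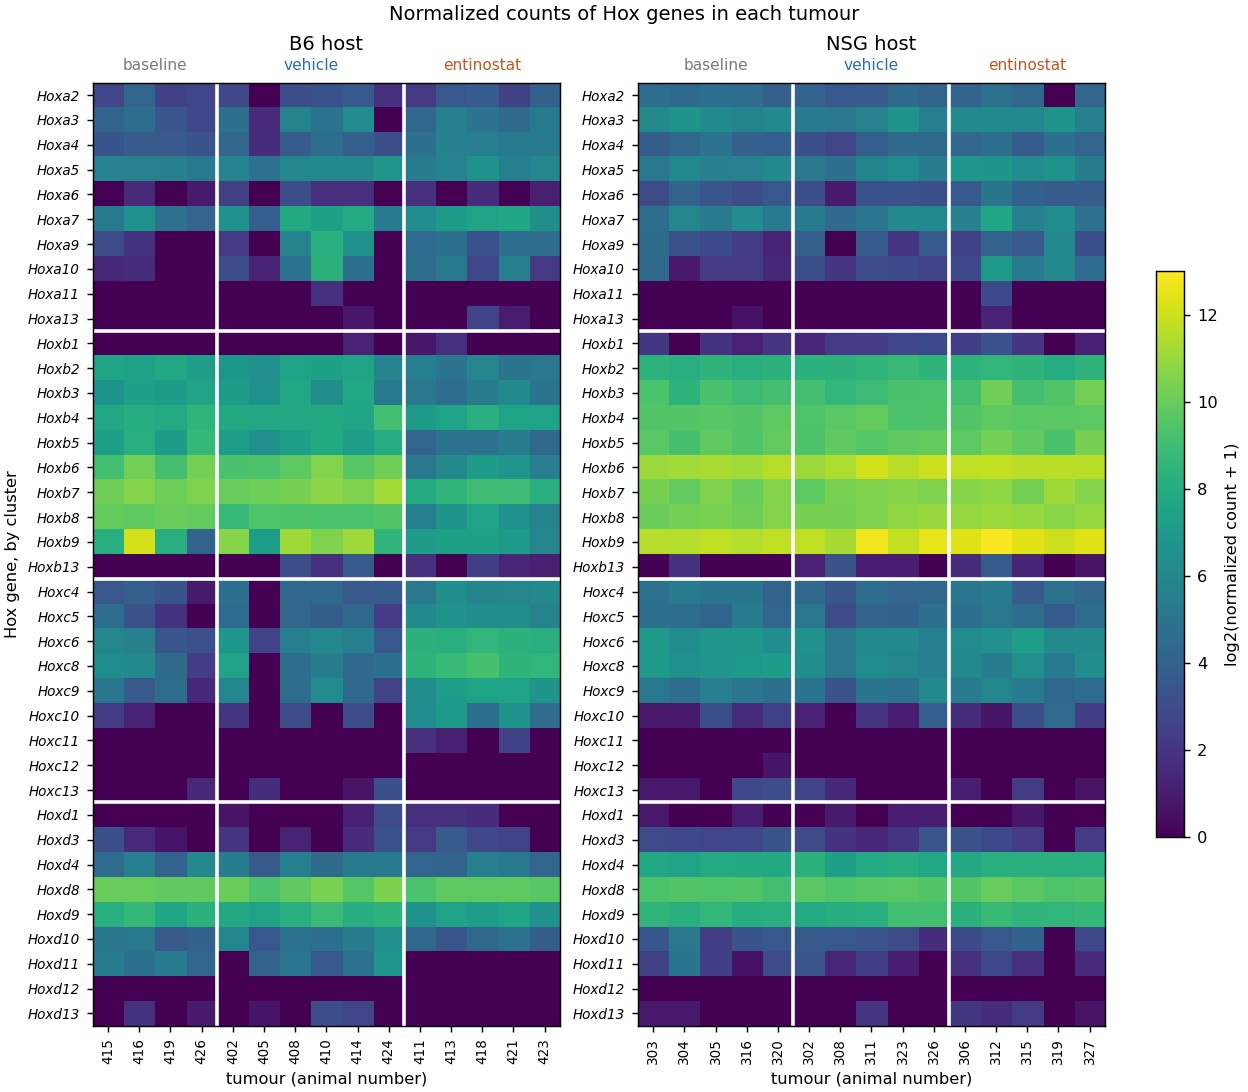
Each row is a Hox gene and each column a tumour, grouped by host and label, and colour gives log2 of the normalized count plus 1, with each host scaled separately. In B6 entinostat tumours the Hoxb rows from Hoxb5 to Hoxb8 are darker and the Hoxc rows from Hoxc4 to Hoxc10 lighter than in the other B6 columns, while NSG columns look alike.

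The B6 comparison of entinostat with vehicle asks how treated tumours of immunocompetent mice differed. The clusters moved in different directions: 7 of 8 tested Hoxb genes fell, 6 tested Hoxc genes rose, 2 of 5 tested Hoxd genes fell, and 1 of 8 tested Hoxa genes, Hoxa4, rose. Of the Hoxc genes, Hoxc10 passed the filter only through the entinostat tumours and so had to differ, which leaves 5 of 5 others. Hoxd11, at 0 in every entinostat tumour, passed it only through vehicle and baseline tumours, so its call is no support. In total 7 Hox genes rose and 9 fell of 27 tested, with limma's moderated test and a Benjamini-Hochberg (BH) adjusted p under 0.05 as the threshold. Of all 17053 genes tested 56.0% were called, 29.9% as higher and 26.2% as lower, so the share of Hox genes called is near that of all genes. The median log2 difference was -2.28 for Hoxb and 0.52 for Hoxa, against -0.01 for all genes tested. The differences of the 5 Hoxc genes ran from 2.43 to 4.22, and those of the tested Hoxd genes other than Hoxd11 from -1.01 to -0.30. Under cyclic loess scaling the Hoxa median turned to -0.45. In bulk tissue fewer cells of a type and less RNA per cell cannot be told apart.

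Genes of like number in different clusters did not always move alike. Paralogue 8, for instance, had a log2 difference of -2.83 for Hoxb8, 4.22 for Hoxc8 and -0.30 for Hoxd8. Ranges of numbers were counted as well, without matching genes of like number. Among the central paralogues, numbered 4 to 8, 5 genes rose and 4 fell of 14 tested. Among those numbered 9 to 13, 2 rose, Hoxc10 among them, and 3 fell of 8, Hoxd11 among them. Of those numbered 1 to 3, 0 rose and 2 fell of 5. These counts stand beside 29.9% of all genes called as higher and 26.2% as lower, and most lie near those shares. They are a description, and the calls of Hoxc10 and Hoxd11 are no support.

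**Figure D2:**
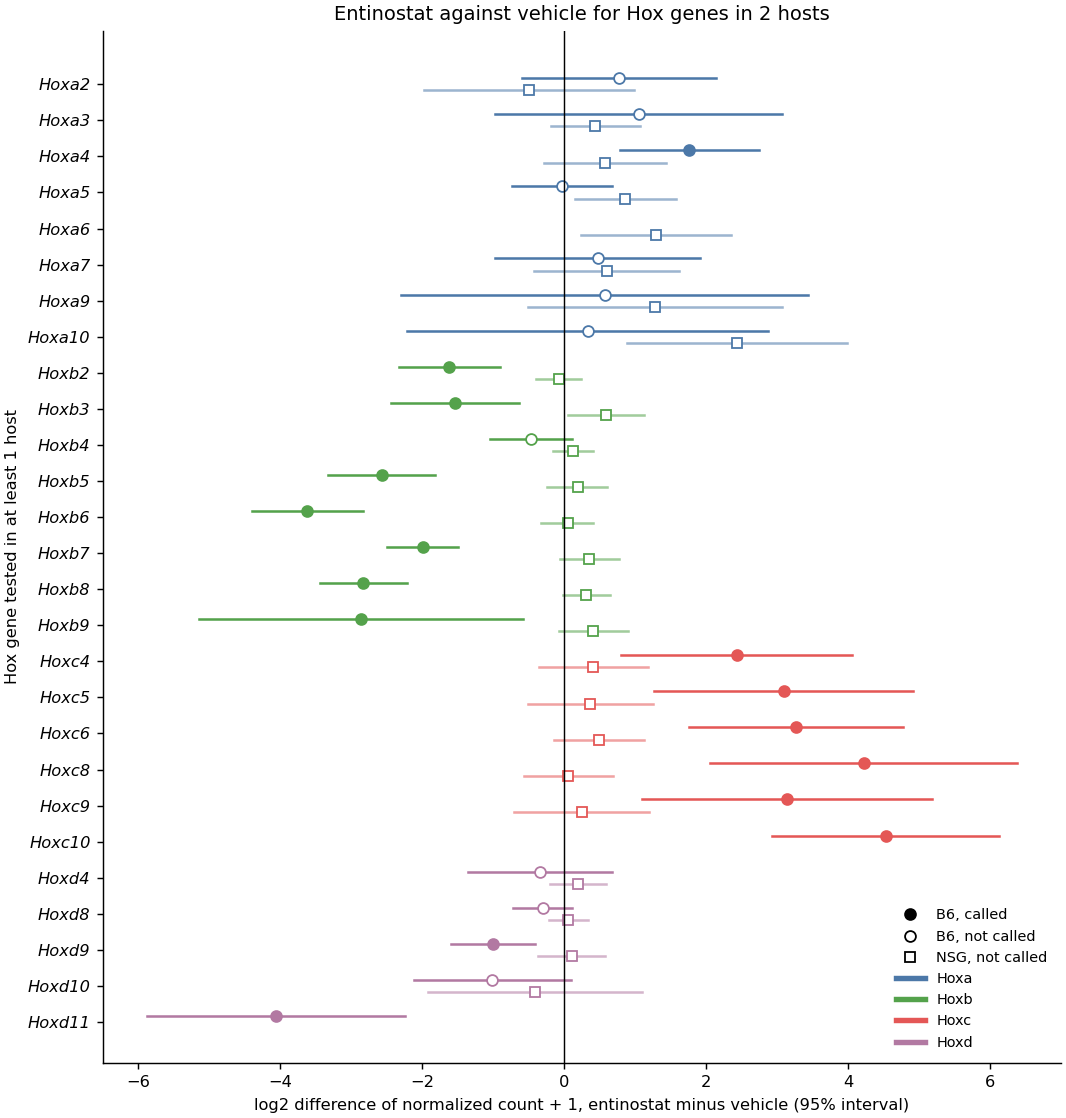
Points give the log2 difference of the normalized count plus 1 between entinostat and vehicle tumours, with 95% intervals, for Hox genes tested in B6 (circles, filled where called) and NSG (squares), coloured by cluster. Circles of Hoxb genes other than Hoxb4 are filled and left of 0, circles of all 6 Hoxc genes are filled and right of 0, and no NSG square is filled. The Hoxd11 point depends on the added 1, since that gene was listed at 0 in every B6 entinostat tumour.

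The falls of Hoxb5, Hoxb6, Hoxb7 and Hoxb8 left no overlap between groups. The share of all genes without overlap was not counted, so a lack of overlap, here and below, only describes the gene named. Hoxb6, a trunk-level gene, measured 35.73, 69.69, 145.3, 107.1 and 46.63 in B6 entinostat tumours 411, 413, 418, 421 and 423, the order kept for all genes. In the 6 vehicle tumours it ran from 615.4 to 1482 with a median of 831.1, and the baseline tumours 415, 416, 419 and 426 held 560.9, 1215, 575.8 and 1241. Every entinostat tumour was below every vehicle and baseline tumour. The log2 difference from vehicle was -3.62 (SE 0.37, limma with BH, adjusted p = 1.88e-06).

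Hoxb8, known for its role in blood progenitors and the thoracic spine, and the gene of the promoter window with 2 core motifs above, fell too. It measured 47.68, 106.0, 180.3, 102.4 and 52.44 in entinostat tumours, against 424.7 to 742.0 with a median of 649.2 in vehicle tumours. Baseline tumours held 972.5, 889.4, 1038 and 946.2, so the 3 groups did not overlap. Vehicle tumour 402 was the lowest of its group. The log2 difference between entinostat and vehicle was -2.83 (SE 0.29, limma with BH, adjusted p = 1.85e-06).

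Hoxb7, which marks the ureteric bud of the developing kidney, was at 247.2, 359.4, 490.6, 476.1 and 280.2 in entinostat tumours and at 1005 to 2354 (median 1349) in vehicle tumours. Those groups were apart, and the log2 difference was -1.99 (SE 0.23, limma with BH, adjusted p = 7.35e-06). Hoxb5, active in enteric neural crest, was at 18.08, 29.86, 29.19, 43.73 and 21.22 against 93.01 to 268.2 (median 155.0). These groups too were apart, with a log2 difference of -2.57 (SE 0.35, limma with BH, adjusted p = 2.96e-05).

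Against vehicle the head-end Hoxb genes fell by less than Hoxb5 to Hoxb8, and their groups overlapped. Hoxb2, a hindbrain gene, was at 47.43, 30.88, 59.32, 30.88 and 36.51 in entinostat and at 54.35 to 189.2 (median 141.4) in vehicle tumours, a log2 difference of -1.62 (SE 0.33, limma with BH, adjusted p = 0.000805). Hoxb3 was at 35.05, 24.81, 43.62, 74.06 and 31.09 against 40.60 to 216.1 (median 121.6), a log2 difference of -1.54 (SE 0.42, limma with BH, adjusted p = 0.006). Vehicle tumour 424 was the lowest of its group for both genes and lay among the entinostat tumours. Hoxb4, a gene used to expand blood stem cells, was not called: entinostat tumours held 134.8 to 288.0 and vehicle tumours 197.4 to 557.3, with a log2 difference of -0.47 (95% interval -1.05 to 0.11, limma with BH, adjusted p = 0.152). Tumour 424 was the highest vehicle tumour for Hoxb4.

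Hoxb9, a gene of the thoracic level, differed from the other Hoxb genes in its spread. Baseline tumours held 289.7, 4610, 290.9 and 16.61, vehicle tumours 1589, 151.1, 2270, 1441, 2206 and 367.9 (tumours 402, 405, 408, 410, 414 and 424), and entinostat tumours 139.8, 167.4, 168.1, 139.9 and 60.22. Vehicle tumour 405 lay within the entinostat range, and baseline tumours ran from below it to above every other B6 tumour. The log2 difference from vehicle was -2.86 (SE 1.07, limma with BH, adjusted p = 0.033). The call was lost on leaving out vehicle tumour 402, 408, 410 or 414 or entinostat tumour 411, 421 or 423, with adjusted p from 0.0527 to 0.0751, and against baseline the gene was not called (log2 difference -1.17, adjusted p = 0.421).

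The Hoxc genes went the other way. For Hoxc4, Hoxc5, Hoxc6, Hoxc8 and Hoxc9 every entinostat tumour was above every vehicle and every baseline tumour, and how many of all genes were so was not counted. Hoxc8, which patterns the thoracic skeleton and brachial motor neurons, measured 351.1, 444.8, 591.6, 350.0 and 377.0 in entinostat tumours. Vehicle tumours 402, 405, 408, 410, 414 and 424 held 179.3, 0, 23.36, 44.88, 21.01 and 26.19, and baseline tumours 78.63, 67.64, 21.57 and 4.151. Tumour 402 stood highest and tumour 405 was listed at 0. The log2 difference from vehicle was 4.22 (SE 1.01, limma with BH, adjusted p = 0.00253).

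Hoxc6, also a thoracic gene, was at 330.8, 285.8, 377.1, 323.5 and 284.1 in entinostat tumours, at 5.206 to 111.4 (median 48.54) in vehicle tumours, and at 59.84, 49.46, 10.06 and 8.251 in baseline tumours. The entinostat tumours lay close together and the untreated ones spread widely. The log2 difference from vehicle was 3.26 (SE 0.71, limma with BH, adjusted p = 0.00121). Hoxc9, which sets thoracic motor neuron identity, was at 86.00, 151.2, 185.6, 188.2 and 105.9 against 0 to 76.07 (median 21.13) in vehicle tumours, a log2 difference of 3.14 (SE 0.96, limma with BH, adjusted p = 0.0117).

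Hoxc10, a gene of the lumbar level and the hind limb, was low without entinostat. It measured 80.10, 125.8, 25.55, 98.83 and 24.04 in entinostat tumours, while vehicle tumours ran from 0 to 7.052 with 3 of 6 listed at 0, and baseline tumours held 3.751, 1.353, 0 and 0. It passed the filter only through the group where it is high, so its fit is given no weight and its values are a description. Hoxc4 and Hoxc5 stand at the other end of the cluster. Hoxc4, the gene of the second promoter window above, was at 35.84 to 86.51 in entinostat and 0 to 25.64 in vehicle tumours (log2 difference 2.43, SE 0.77, limma with BH, adjusted p = 0.0138). Hoxc5 was at 54.23 to 99.00 against 0 to 22.56 (log2 difference 3.09, SE 0.86, limma with BH, adjusted p = 0.00674). Under cyclic loess scaling Hoxc4 was no longer called (log2 difference 1.56, adjusted p = 0.064).

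**Figure D3:**
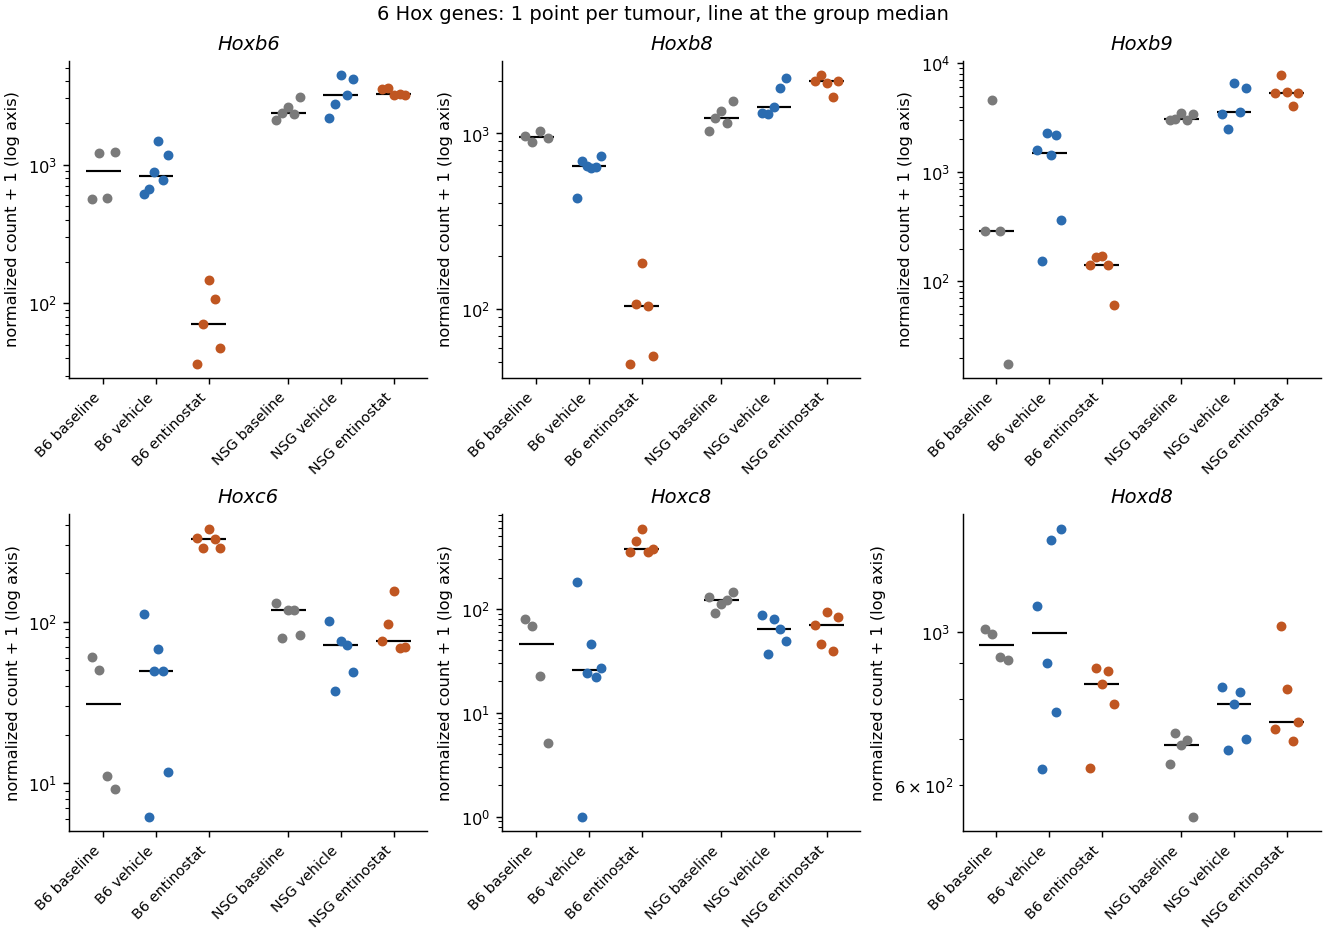
Each panel is a Hox gene, each point a tumour and each line a group median, on a log axis of the normalized count plus 1, with each host scaled separately. B6 entinostat tumours lie below the other B6 tumours for Hoxb6 and Hoxb8 and above them for Hoxc6 and Hoxc8, Hoxb9 spreads widely in untreated B6 tumours, and Hoxd8 overlaps between B6 vehicle and entinostat tumours.

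Hoxd8, a trunk-level gene, was not called in the Hoxd cluster. It measured 633.0, 884.9, 837.4, 875.6 and 783.3 in entinostat tumours and 630.8 to 1408 (median 993.2) in vehicle tumours. These groups overlapped, and the log2 difference was -0.30 (95% interval -0.72 to 0.11, limma with BH, adjusted p = 0.202). Hoxd9, a lumbar-level gene and the third promoter window above, fell. It was at 97.61, 176.3, 153.5, 206.0 and 102.3 in entinostat and 180.9 to 458.7 (median 276.7) in vehicle tumours, with entinostat tumour 421 above the lowest vehicle tumour. Its log2 difference was -1.0 (SE 0.28, limma with BH, adjusted p = 0.00652).

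Hoxd11, which patterns the forearm and the kidney, was listed at 0 in all 5 entinostat tumours. Vehicle tumours held 0, 16.23, 33.02, 10.79, 27.39 and 108.5, and baseline tumours 44.28, 26.74, 40.18 and 18.12. Vehicle tumour 402 was also listed at 0. The gene passed the filter only through vehicle and baseline tumours. Its call as lower than vehicle (limma with BH, adjusted p = 0.000961) is thus given no weight, and its values are a description. No fold is given against a group at 0. Hoxd10, its overlapping neighbour, was at 9.598 to 27.57 against 10.51 to 89.72 and was not called (log2 difference -1.01, limma with BH, adjusted p = 0.109), nor was Hoxd4 (log2 difference -0.34, adjusted p = 0.562).

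Of the Hoxa genes, Hoxa4 was the exception among 8 tested. It measured 25.57, 51.60, 46.86, 42.17 and 37.32 in entinostat tumours and 2.254 to 24.91 (median 13.20) in vehicle tumours, which did not overlap. The log2 difference was 1.76 (SE 0.46, limma with BH, adjusted p = 0.00463), and under cyclic loess scaling it was 0.89 with an adjusted p of 0.0676. The posterior members Hoxa9, a gene known from leukaemia, and Hoxa10, needed for the uterus, spread widely among vehicle tumours: Hoxa9 ran from 0 to 303.2 and Hoxa10 from 0 to 323.03, with tumour 410 highest in both. Entinostat tumours held 8.643 to 25.47 and 3.407 to 45.91, and neither gene was called. Both would have failed the filter on low values without the entinostat tumours. Hoxa2, Hoxa3, Hoxa5 and Hoxa7 were not called either, with log2 differences from -0.03 to 1.05.

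Summed over a cluster, the makeup of the Hox signal changed in B6 entinostat tumours. The Hoxb sum was 3149 to 5992 in vehicle and 708.9 to 1409 in entinostat tumours, and the Hoxc sum 7.458 to 402.8 and 914.6 to 1324. Neither pair of ranges overlapped. Hoxb held a median of 72.3% of all Hox signal in vehicle and 26.4% in entinostat tumours, Hoxc 1.73% and 31.8%, Hoxd 20.6% and 29.5%, and Hoxa 5.54% and 11.5%. The larger shares of Hoxd and Hoxa did not come with larger sums: Hoxd summed to 851.1 to 2015 in vehicle and 774.4 to 1151 in entinostat tumours, and Hoxa to 123.3 to 996.2 and 274 to 477.4. The sum of all 39 genes was 4131 to 9089 in vehicle and 2717 to 4239 in entinostat tumours.

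**Figure D4:**
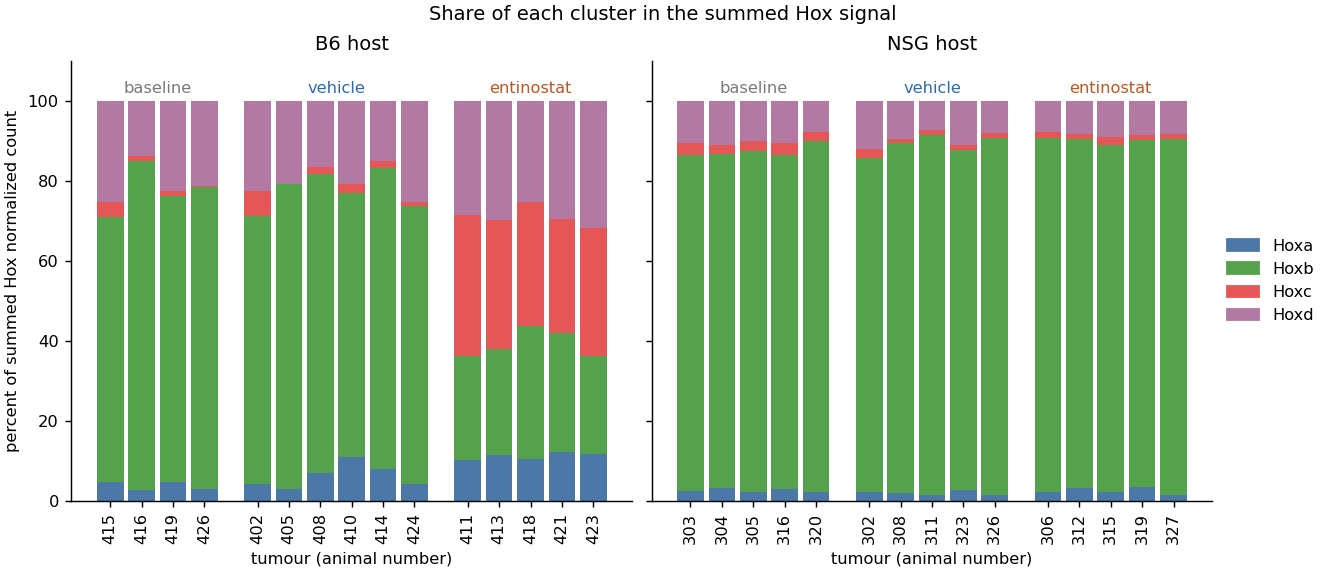
Each bar is a tumour and splits its summed Hox normalized count, not corrected for gene length, into the 4 clusters in percent. Hoxc takes 28.5 to 35.3% of the bar in the 5 B6 entinostat tumours and at most 6.31% in every other tumour shown.

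Markers of cell types moved with these changes in B6 tumours. The 8 epithelial markers (keratins Krt5, Krt14, Krt8 and Krt18 with Epcam, Cdh1, Trp63 and Cldn4), which should mark bladder cancer cells, summed to 135400 to 601700 in vehicle tumours and to 1129 to 4725 in entinostat tumours. All 8 fell, with a median log2 difference of -6.06. The markers of the labelled tissue were thus present in every other group and low in B6 entinostat tumours, where none was at 0 in all 5. The 10 fibroblast markers, such as Col1a1 and Pdgfra, summed to 2673 to 477100 in vehicle and 1061000 to 1549000 in entinostat tumours, and all 10 rose. The 8 macrophage markers went from 5034 to 78370 in vehicle to 392100 to 1017000 in entinostat tumours, and all 8 rose.

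The other marker lists also moved. Marker counts of this comparison, those above included, stand beside 29.9% of all genes called as higher and 26.2% as lower. Of tested markers, 7 of 7 for endothelium, 8 of 10 for skeletal muscle, 5 of 6 for T cells, 4 of 4 for B and plasma cells, 3 of 6 for adipocytes and 2 of 5 for Schwann and neural cells rose, and none of these fell. For skin keratinocytes and hair follicles 3 of 4 fell and 0 rose, and Flg, Krt25 and Krt35 were at 0 in all entinostat tumours. Muscle markers summed to 51.25 to 157 in vehicle and 142.7 to 509400 in entinostat tumours, with Myf5 at 0 in all vehicle tumours. Baseline tumours 415, 416, 419 and 426 held 17350, 39.20, 105.3 and 45.70. The filter may thus have kept muscle markers mainly through entinostat tumours, and their count is no support. The part of these cell types in the Hox changes was not tested.

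The Hoxc and fibroblast sums could also be set side by side among vehicle tumours, which had no entinostat. From highest to lowest the Hoxc sum was 402.8, 220.2, 140.1, 128.0, 66.55 and 7.458 in tumours 402, 410, 408, 414, 424 and 405. Fibroblast marker sums in that order were 477100, 95780, 39990, 37110, 15660 and 2673. Macrophage marker sums in that order were 78370, 38800, 14240, 13290, 8551 and 5034. All 3 sums thus gave these 6 tumours the same order, which is not particular to fibroblast markers. Not every list did so: endothelial marker sums in that order were 20410, 4727, 2138, 1946, 2248 and 763.5, with tumour 424 above 408 and 414. Among the 4 baseline tumours the Hoxc sum was 209.8, 152.6, 67.22 and 17 in tumours 415, 416, 419 and 426, and fibroblast markers summed to 146200, 163900, 61980 and 9754, which differs in the order of the top pair. Endothelial markers summed to 5566, 3849, 3005 and 1323 in these tumours, in the order of the Hoxc sum, and macrophage markers to 24460, 35160, 28230 and 7757. The Hoxb sum of vehicle tumours had no such order with the epithelial markers: tumour 410, with an epithelial sum of 169900, held the highest Hoxb sum at 5992.

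**Figure D5:**
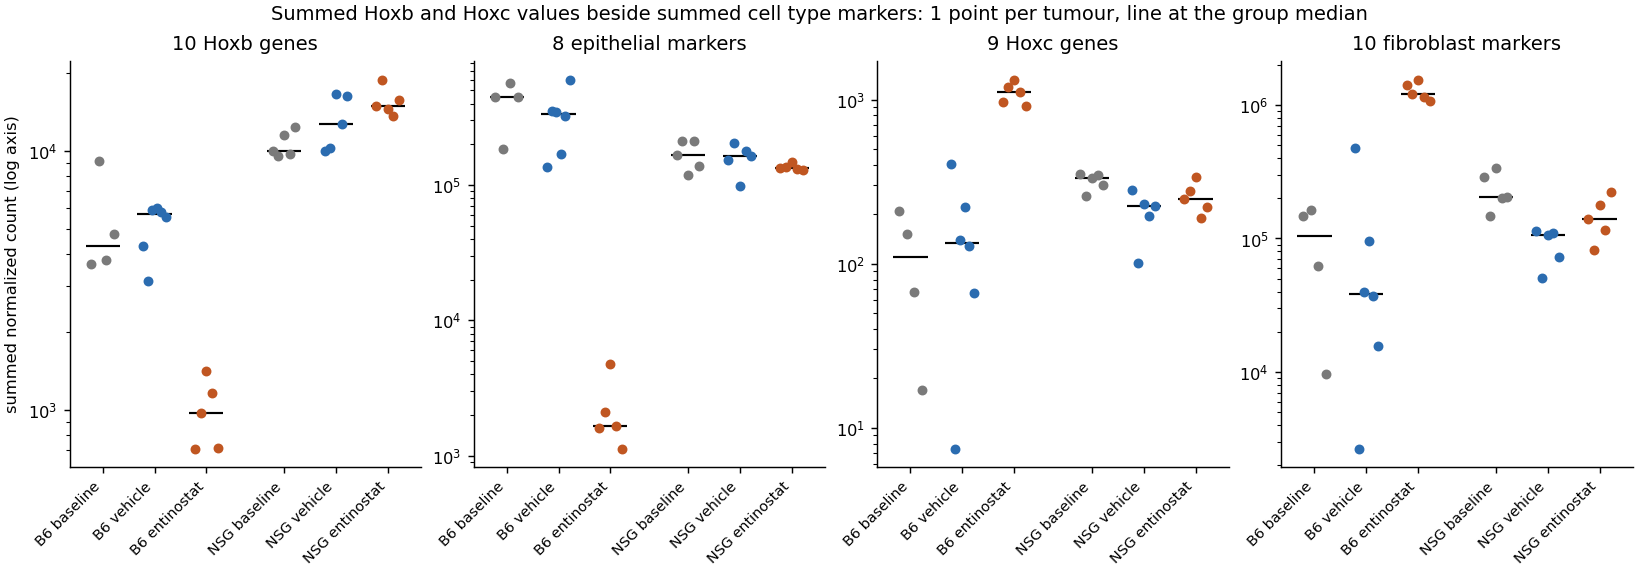
Points are tumours and lines group medians, on log axes of summed normalized counts for the Hoxb genes, epithelial markers, Hoxc genes and fibroblast markers, with each host scaled separately. In B6 entinostat tumours the Hoxb and epithelial sums lie below, and the Hoxc and fibroblast sums above, all other B6 tumours.

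Against baseline, B6 entinostat tumours gave 8 higher and 8 lower calls among 27 Hox genes, in a comparison where 54.4% of all genes were called, 29.1% as higher and 25.3% as lower. This comparison shares its entinostat tumours with that against vehicle. Beside Hoxc10, which the filter kept only through these tumours, 5 of 5 tested Hoxc genes rose, with log2 differences from 2.96 (Hoxc4) to 3.88 (Hoxc8). Of 8 Hoxb genes 6 fell, led by Hoxb6 at -3.54 (SE 0.41) and Hoxb8 at -3.45 (SE 0.32), and Hoxb4 and Hoxb9 were not called. The head-end genes Hoxb2 (-2.17, SE 0.37) and Hoxb3 (-1.88, SE 0.47) did not fall by less than Hoxb7 (-1.87, SE 0.26) here. Both were lower in every entinostat than in every baseline tumour. Hoxd9 fell, as did Hoxd11, which the filter kept only through vehicle and baseline tumours. Hoxa4 rose, as did Hoxa10, with a log2 difference of 3.27 (SE 1.33, limma with BH, adjusted p = 0.0478). Without the entinostat tumours Hoxa10 would have failed the filter on low values, so its call is no support. The Hoxa10 call was lost on leaving out baseline tumour 415, 416, 419 or 426 or entinostat tumour 411, 413 or 421 (adjusted p 0.0556 to 0.109). Over all alternatives the Hoxa10 call was lost in 11 of 16 refits, with an adjusted p of up to 0.161, reached under cyclic loess scaling. That scaling also ended the Hoxa4 call (log2 difference 1.01, adjusted p = 0.0651) and left no Hoxa gene higher and 1 lower. Without baseline tumour 426 Hoxc9 lost its call as well (log2 difference 2.65, adjusted p = 0.0572).

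Comparing B6 vehicle with baseline shows what differed without the drug. No Hox gene of 27 was called by limma, and 0% of all genes were called, the smallest adjusted p over all genes being 0.148. At an unadjusted p under 0.05 the test listed 1 Hox gene, Hoxa10, and 749 of all genes. The median log2 difference of Hox genes was 0.08, against -0.01 for all genes. Hoxb8 was lower in every vehicle than in every baseline tumour, with a log2 difference of -0.62 (95% interval -1.28 to 0.03) that was not called.

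In NSG hosts, which lack lymphocytes, entinostat was compared with vehicle in the same way. No Hox gene of 26 was called by limma, in a comparison where 0% of all 17752 genes were called. At an unadjusted p under 0.05 there were 4 Hox genes, Hoxa5, Hoxa6, Hoxa10 and Hoxb3, and 1287 of all genes. Hoxa6 and Hoxa10 would not have passed the filter without the entinostat tumours. The median log2 difference was 0.33 for Hox genes and -0.03 for all genes.

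None of the Hoxb genes that fell in B6 tumours was called in NSG tumours. Hoxb6 measured 3482, 3547, 3185, 3216 and 3173 in the NSG entinostat tumours, in the order of their animal numbers, and 2183, 2719, 4390, 3161 and 4130 in the vehicle tumours. The entinostat tumours fell within the vehicle range, and the log2 difference was 0.05 (95% interval -0.32 to 0.41). Hoxb8 was at 1983, 2141, 1936, 1622 and 1980 against 1306, 1284, 1416, 1818 and 2068, with a log2 difference of 0.31 (95% interval -0.01 to 0.64). Hoxb9 held 5311, 7725, 5501, 4092 and 5322 against 3431, 2479, 6638, 3542 and 5921, and so lacked the wide spread it had in untreated B6 tumours.

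Hoxc genes did not separate NSG groups either. Hoxc8 was at 69.55, 44.76, 92.25, 38.60 and 82.98 in entinostat and 85.88, 36.00, 79.41, 62.64 and 48.58 in vehicle tumours, a log2 difference of 0.06 (95% interval -0.57 to 0.69). Hoxc10 ran from 0.7418 to 22.25 in entinostat and 0 to 13.55 in vehicle tumours and was not tested. The posterior gene Hoxa10 was at 6.287, 128.9, 40.31, 68.83 and 22.31 against 7.589, 3.060, 7.304, 6.504 and 5.356. All but NSG_Entinostat_306 were above every vehicle tumour, with a log2 difference of 2.43 (SE 0.73, limma with BH, adjusted p = 0.682), which did not pass. Hoxa6 was higher in every entinostat tumour (11.06 to 32.77) than in every vehicle tumour (0.918 to 8.781) and did not pass either (log2 difference 1.29, SE 0.50, limma with BH, adjusted p = 0.682). Without the entinostat tumours Hoxa6 and Hoxa10 would have failed the filter on low values, so their values are a description.

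Across all 15 NSG tumours Hoxb held at least 83.4% of the summed Hox signal and Hoxc 0.864 to 3.0%. The Hoxb sum was 13630 to 18810 in entinostat and 9950 to 16470 in vehicle tumours, and the Hoxc sum 188.9 to 337.5 and 101 to 280.7. Epithelial markers summed to 129800 to 148700 in entinostat and 98220 to 205100 in vehicle tumours, and fibroblast markers to 82720 to 221800 and 50810 to 114000. Muscle markers ranged from 248.9 to 21880 and from 613.2 to 98180. The Hoxb, Hoxc, epithelial, fibroblast and muscle sums all overlapped between these groups.

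The other NSG comparisons gave few Hox calls. Entinostat against baseline called 0 of 26 Hox genes by limma, and 0.406% of all genes, 0.208% as higher and 0.197% as lower. At an unadjusted p under 0.05 there were 7 Hox genes and 4501 of all 17752 genes, which are near the same share. Hoxb8 (log2 difference 0.63, SE 0.15, adjusted p = 0.065), Hoxb9 (0.78, SE 0.23, adjusted p = 0.0916) and Hoxb6 (0.43, SE 0.17, adjusted p = 0.149) were higher in every entinostat than in every baseline tumour without passing. Libraries of NSG baseline and vehicle tumours share 4 sample-sheet numbers, so they were numbered on more than 1 sheet. No batch label is given, so a batch difference between these groups could not be told apart from the label. Vehicle against baseline called 13.0% of all genes, 7.53% as higher and 5.50% as lower, and 1 Hox gene. That gene, Hoxc8, was at 85.88, 36.00, 79.41, 62.64 and 48.58 in vehicle and 129.6, 90.59, 109.9, 120.1 and 143.5 in baseline tumours. The groups did not overlap, and the log2 difference was -0.97 (SE 0.30, limma with BH, adjusted p = 0.0439). The call was lost on leaving out NSG_Baseline_303, NSG_Baseline_305, NSG_Baseline_316, NSG_Baseline_320, NSG_Non-Treatment_308, NSG_Non-Treatment_323 or NSG_Non-Treatment_326, the last 3 being vehicle tumours, with adjusted p from 0.065 to 0.106. Fibroblast markers summed to 50810 to 114000 in vehicle and 148600 to 339800 in baseline tumours, and 5 of 10 fell. Of endothelial markers 5 of 7 fell, of macrophage markers 3 of 8 fell, of B and plasma cell markers 1 of 2 fell, and of epithelial markers 2 of 8 rose. Their part in the Hoxc8 result was not tested.

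Whether hosts differed was tested directly, as the log2 difference of entinostat from vehicle in B6 minus that in NSG tumours. Of 28 Hox genes tested, 5 were called as higher and 9 as lower, against 41.3% of all genes, 23.5% as higher and 17.8% as lower. All the Hoxb genes called in B6 were among them, with Hoxb6 at -3.67 (SE 0.42, limma with BH, adjusted p = 1.33e-07) and Hoxb8 at -3.14 (SE 0.33, adjusted p = 3.41e-08). Hoxc8 differed by 4.16 (SE 1.11, adjusted p = 0.00391) and Hoxc6 by 2.77 (SE 0.80, adjusted p = 0.00703), while Hoxc4 missed the threshold (2.02, 95% interval 0.24 to 3.80, adjusted p = 0.0634). Hoxc10 was among the 5 but failed the filter in NSG and passed it in B6 only through entinostat tumours, so its call is no support. Hoxd11, among the 9 lower, also failed it in NSG and passed it in B6 only through vehicle and baseline tumours. Its call is no support either. No Hoxa gene was called, Hoxa4 included (1.19, adjusted p = 0.115), but 2 were called as lower under quantile and under cyclic loess scaling, with 12 and 11 Hox genes lower in all. The calls of Hoxc5 (2.72, adjusted p = 0.0283) and Hoxc9 (2.89, adjusted p = 0.0377) did not hold throughout. Hoxc9 lost its call on leaving out B6 tumour 405, 424, 413, 418 or 421 or on leaving out NSG_Non-Treatment_302, NSG_Non-Treatment_311, NSG_Non-Treatment_323, NSG_Non-Treatment_326, NSG_Entinostat_319 or NSG_Entinostat_327 (adjusted p 0.0506 to 0.0742). Hoxc5 lost it without NSG_Non-Treatment_302 (adjusted p = 0.0554) or NSG_Entinostat_319 (adjusted p = 0.0505), which left 3 Hox genes called as higher in either case. Over all alternatives, scaling included, Hoxc5 lost its call in 5 of 29 refits (adjusted p up to 0.147) and Hoxc9 in 15 of 29 (up to 0.195). Quantile and cyclic loess scaling and leaving out the tumours richest in muscle markers ended both calls.

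Noncoding genes of the Hox clusters were also compared between B6 entinostat and vehicle tumours. Of 14 noncoding genes listed, 10 were in the tables and 6 were tested, of which 0 rose and 3 fell. Of all genes 56.0% were called, 29.9% as higher and 26.2% as lower, so the share of noncoding genes called is near that of all genes. Hoxb3os, antisense to Hoxb3, averaged 255.7 in entinostat and 964.4 in vehicle tumours, which did not overlap (log2 difference -1.85, SE 0.25, limma with BH, adjusted p = 2.17e-05). Hoxb5os had a log2 difference of -3.09 (SE 0.68, adjusted p = 0.00139) and Hoxd3os1 of -0.87 (SE 0.33, adjusted p = 0.0329). Hoxb5os reached at most 2.019 in entinostat tumours, so it passed the filter only through vehicle and baseline tumours and its call is no support. Hoxaas2, of the Hoxa cluster, was not called (log2 difference 1.11, SE 0.63, adjusted p = 0.142). Without knowing how strands were counted, reads of an antisense gene and its partner cannot be told apart. Hotair averaged 0 in entinostat and 0.2047 in vehicle tumours and Hottip was listed at 0 in both.

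Several proteins bind DNA together with Hox proteins. The counts of the lists that follow are to be read against the 56.0% of all genes called in the B6 comparison of entinostat with vehicle, 29.9% as higher and 26.2% as lower. The shares called of the cofactors, the retinoic acid genes and the Polycomb genes, both directions together, are near that of all genes. Of 9 genes of the PBC and MEIS type, all tested, 3 rose and 3 fell in B6 entinostat against vehicle, with a median log2 difference of -0.05. Meis3 rose (2.73, SE 0.29, limma with BH, adjusted p = 2.51e-06) and so did Pknox2 (2.80, SE 0.78, adjusted p = 0.00656). Meis1, a partner of Hoxa9 in leukaemia, fell (-2.33, SE 0.43, adjusted p = 0.000376), as did Meis2 (-1.79, SE 0.23, adjusted p = 1.48e-05). None of the 8 ParaHox and Evx genes, relatives of the Hox genes, passed the filter in either host.

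Retinoic acid turns on Hox genes in order from the head end in embryos. Of its 17 tested pathway genes 6 rose and 5 fell in B6 entinostat tumours, with a median of 0.08. Those with the smallest p all fell: the binding protein Crabp2 (-3.15, SE 0.30, limma with BH, adjusted p = 9.79e-07), the enzymes Rdh10 (-3.11, SE 0.33, adjusted p = 3.06e-06) and Aldh1a3 (-3.92, SE 0.48, adjusted p = 1.02e-05), which make retinoic acid in successive steps, and the retinol uptake receptor Stra6 (-3.83, SE 0.62, adjusted p = 0.000127). Of 13 trithorax-group genes, which keep Hox genes active, 0 rose and 5 fell, among them Ash2l (-1.28, SE 0.14, adjusted p = 3.17e-06) and Mllt3 (-1.81, SE 0.39, adjusted p = 0.00114). Under cyclic loess scaling 3 trithorax genes fell and under quantile scaling 7. Psip1 (-0.97, SE 0.28, adjusted p = 0.0094) and Mllt1 (-0.40, SE 0.15, adjusted p = 0.0339) fell by less.

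Of 16 Polycomb genes, which keep Hox genes silent, 1 rose and 7 fell. Ezh2, the enzyme that methylates histone H3 at lysine 27, fell (-1.96, SE 0.32, limma with BH, adjusted p = 0.000133), as did its partner Suz12 (-1.29, SE 0.21, adjusted p = 0.000139). Cbx7, which reads that mark, rose (1.03, SE 0.18, adjusted p = 0.00026). Of 21 tested genes for other factors of limb and body wall position, 13 rose and 2 fell, with a median of 1.88, and under cyclic loess scaling 8 rose and 3 fell, with a median of 0.91. Tbx18 (4.20, SE 0.85, adjusted p = 0.00074) and En1 (3.40, SE 0.52, adjusted p = 7.11e-05) rose. Pitx1, the factor that marks the hind limb, fell (-7.76, SE 0.80, adjusted p = 2.29e-06), from a mean of 3451 in vehicle to 28.40 in entinostat tumours.

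In NSG entinostat against vehicle tumours 0 genes of any of these lists were called. The difference between hosts was called for Meis3 (2.64, SE 0.34, limma with BH, adjusted p = 9.11e-07), Meis1 (-2.02, SE 0.50, adjusted p = 0.00225), Ezh2 (-2.07, SE 0.36, adjusted p = 5.61e-05) and Pitx1 (-7.41, SE 0.91, adjusted p = 4.61e-07), and not for Crabp2 (-1.82, SE 0.98, adjusted p = 0.14) or Mllt1 (-0.17, SE 0.22, adjusted p = 0.573). Over the lists, the difference was called as higher and lower for 3 and 2 of 9 cofactors, 6 and 4 of 18 retinoic acid genes, 0 and 4 of 13 trithorax genes, 1 and 4 of 16 Polycomb genes, and 10 and 2 of 22 position factors. It was called as lower for 2 of 6 noncoding genes. Over all genes 23.5% were called as higher and 17.8% as lower, and several of these shares lie near those.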

How the data were processed

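RNA of 30 tumours was measured with a stranded mRNA kit, per the labels. The authors deposited a table for each host whose signal values are counts normalized by DESeq2. The tools STAR and DESeq2 and build mm10 come from the submitters' processing notes, and the counting step and versions are not given in the sources used here. Because each table was scaled to its own libraries, a large change in tissue makeup can shift all fold changes. Values were not nearly all whole multiples of 1 read (45.1 to 79.0% within 0.05 read, below 10 reads), so count tests were not run.

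From these, log2(value + 1) was fitted with limma 3.58.1 in R 4.3.3, with 3 groups of a host in 1 fit, a variance trend and robust empirical Bayes. Fold changes are on that scale, which understates changes of low genes. Genes reaching 10 in 4 (B6) or 5 (NSG) tumours were tested, p-values were BH-adjusted over all of them, and those under 0.05 called. The host difference was a contrast of contrasts in a joint fit. The code was tested on simulated data. The members and lists were chosen with earlier results of these data known. Hox genes are accounted for in the counts, those called are given by tumour where the text turns on them, and up to 4 genes of each other list with the smallest adjusted p are named, except that a few genes are not reported here. Summaries used Python 3.11.15, pandas 2.3.3 and matplotlib 3.10.9. Alternatives were other pseudocounts, filters, scalings, variance settings, fits with only 2 groups, and leaving out libraries. Receptor and exome samples were not used.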

Additional observations from a re-analysis of the deposited data

Results flagged for a closer look

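Differences between hosts in the entinostat response, B6 minus NSG on the log2 scale, passed limma's contrast test after BH adjustment for 14 Hox genes. They were lower for Hoxb6 (-3.67), Hoxb9 (-3.27), Hoxb8 (-3.14), Hoxb5 (-2.76), Hoxb7 (-2.34), Hoxb3 (-2.13), Hoxb2 (-1.53) and Hoxd9 (-1.11), and higher for Hoxc8 (4.16), Hoxc10 (3.63), Hoxc9 (2.89), Hoxc6 (2.77) and Hoxc5 (2.72). Hoxc10 passed the filter only through B6 entinostat tumours. Hoxd11 had a fitted difference of -4.02, which depends on the added 1 because the gene was listed at 0 in every B6 entinostat tumour. It passed the filter only through B6 vehicle and baseline tumours.

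Single tumours stood apart from their group by Dixon's criterion in 17 of 176 groups of values examined. For normally distributed values chance alone gives about 1 in 20. The criterion was applied to values without a log, so the share that chance gives here is not known. Tumour 416 was the highest B6 baseline tumour for Hoxa2 (17.62, next 5.635) and Hoxb9 (4610, next 290.9). Among B6 vehicle tumours, 424 was highest for Hoxb4 (557.3, next 238.2) and Hoxd11 (108.5, next 33.02). Tumour 410 was highest for Hoxa9 (303.2, next 101.6) and Hoxa10 (323.03, next 29.95). Tumour 402 was lowest for Hoxb8 (424.7, next 634.7) and highest for Hoxc8 (179.3, next 44.88). In B6 entinostat tumours, 418 was lowest for Hoxa9 (8.643, next 22.28) and 423 lowest for Hoxb9 (60.22, next 139.8).

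At baseline, NSG_Baseline_303 was highest for Hoxa10 (19.64, next 3.653) and NSG_Baseline_304 for Hoxd10 (34.32, next 10.52). Among vehicle tumours NSG_Non-Treatment_323 was highest for Hoxa3 (103.4, next 52.39), and NSG_Non-Treatment_308 lowest for Hoxa6 (0.918, next 7.865). Among entinostat tumours NSG_Entinostat_312 was highest for Hoxa6 (32.77, next 15.32), NSG_Entinostat_319 highest for Hoxa9 (72.39, next 16.14) and NSG_Entinostat_306 lowest for Hoxd4 (227.1, next 283.7).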

How the results depend on the processing

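No Hox call reversed direction under any setting tried. In B6 entinostat against vehicle, calls of Hox genes were lost in 9 of 317 refits of single genes, against baseline in 13 of 283, and in the difference between hosts in 20 of 404. These tallies leave out refits in which the filter left a gene untested. The count of Hox genes called as higher in B6 entinostat against baseline was 5 in place of 8 with a filter of 50, which left Hoxa4, Hoxa10 and Hoxc10 untested. It was 6 with cyclic loess scaling. The NSG vehicle against baseline count of 1 lower fell to 0 with no filter, quantile scaling, cyclic loess scaling or without the tumours richest in muscle markers, was 0 to 1 with 1 tumour left out, and its higher count was 0 to 1. NSG entinostat against baseline gave 2 higher in place of 0 with quantile scaling or with only the 2 groups compared in the fit, and 0 to 1 with 1 tumour left out. The host difference gave 3 higher in place of 5 with quantile scaling, cyclic loess scaling or without the tumours richest in muscle markers, and 3 to 6 with 1 tumour left out, and its lower count of 9 became 12 with quantile and 11 with cyclic loess scaling. The cause of the other shifts was not tested. Quantile scaling moved the median of all genes in B6 entinostat against vehicle to -0.16 and the split of all calls from 5093 higher and 4460 lower to 4548 and 5305. Cyclic loess gave 4643 and 5033. Hoxb stayed at 7 lower under both, Hoxc at 6 higher under quantile and 5 under loess. The host difference split of 4344 higher and 3291 lower became 3581 and 3919 with quantile scaling and 3876 and 3725 with loess. No paired analysis was possible because the RNA groups compared share no animal numbers. Genes at a few reads per tumour, mainly the members numbered 11 to 13, were not measurable at this depth.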
